A study of Arabidopsis thaliana with 12 samples.

Results

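Arabidopsis thaliana seedlings that had received 1 h of white light at night were compared with seedlings that had received the same 1 h of light in the subjective day, so that both groups differed in time and not in the treatment given. The comparison rests on the 3 arrays titled as night treatment and the 3 titled as day treatment, 6 of the 12 ATH1 arrays of the series, and on every probe set that is no array control. All plants were wild type of the Columbia ecotype and 15 days old. They had grown in cycles of 12 h light (white) and 12 h darkness and were then kept in constant darkness, and RNA came from the aerial rosette. The other 6 arrays, 3 for each time, came from plants collected without a pulse and served here as the comparison in darkness. The 4 groups are called night pulse, day pulse, night control and day control. The labels give the night samples the hour CT 6 and the day samples CT 18, which conflicts with the titles unless the hours count from another point than subjective dawn, and groups follow the titles. The hours of darkness before each pulse were not among the labels read here, so time of day and length of darkness cannot be told apart.

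The circadian clock of plants is a set of transcription factors and partner proteins that repress and activate one another, and it sets the hour at which much of the transcriptome is expressed. Light acts on it through phytochromes and cryptochromes, and a short pulse resets the clock by an amount that depends on the hour. Leaves also store starch in the light and use it up in darkness, and when darkness outlasts the store they turn to protein, lipids and amino acids as fuel for respiration, with the genes of amino acid breakdown and autophagy switched on. A gene can therefore differ between the pulsed groups through its level before the light, through its response to the light, or through both. The dark controls are separate plants without a pulse that carry the same hour in the labels. They stand in for the level before the light and do not measure it.

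The 2 pulsed groups stood well apart. Correlations between arrays over the probe sets tested were 0.948 to 0.960 within the night pulse group, 0.888 to 0.973 within the day pulse group and 0.786 to 0.845 between them. On the second principal component, with 24.5% of the variance, the day pulse arrays lay between -71.1 and -66.8 and the night pulse arrays between 6.28 and 13.1. Day pulse replicate 1 had the lowest median signal of the 12 arrays before normalization, 23.5, and a ratio of 3' to 5' GAPDH signal, a sign of RNA quality, of 9.29 against 2.16 to 5.16 on the other pulsed arrays. Night pulse replicate 3 had the highest such ratio for actin, 37.1 against 13.5 to 27.7 on the others. The leaf markers RCA, PRK and SBPASE, all of carbon fixation, had normalized signals of 2738 to 8693 on the pulsed arrays. SBPASE was higher after the night pulse (5105 ± 950 and 2877 ± 235, 0.81 ± 0.15, limma adjusted p = 0.00127), and RCA and PRK were not called. The root marker PYK10, a beta-glucosidase, was also well measured, at 1497 ± 290 in the night pulse group and 611 ± 197 in the day pulse group (mean ± SD, n = 3), while the root markers EXPA7 and AT5G17820 stayed at or under 10.4. In bulk RNA, fewer cells of a type and less RNA per cell cannot be told apart. Signals are given normalized, differences are log2 values of night minus day from limma, given ± SE with n = 3 arrays a group, so that a negative value means a higher signal in the day group. A probe set is called where the Benjamini-Hochberg adjusted p is under 0.05. "At least" marks a fold against a mean signal under 21.75, the lowest mean signal kept for testing.

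After the same 1 h of light, limma called 4756 of 13647 probe sets between night and day, 34.9% of those tested. Of these 2562 were higher after the night pulse, 18.8% of those tested, and 2194 after the day pulse, 16.1%. All counts of list members called in light, given below, stand beside these shares. The arrays of both pulsed groups did not overlap for 6279 probe sets, 46.0%. The difference was at least 2-fold for 2590 called probe sets and at least 4-fold for 474, of which 273 were higher in the night pulse group and 201 in the day pulse group. The share of calls that were higher at night was 53.9% and depended on the scaling: it was 59.5% with arrays centred on their medians, and 89.9% without normalization, which moved the median of all differences from -0.03 to 0.45 and left 375 calls that were higher after the day pulse.

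In darkness the controls differed by time for 6606 probe sets, 48.4% of those tested, 3504 of them higher at night (25.7%) and 3102 in the day (22.7%). All counts of list members called in darkness, given below, stand beside these shares. The pulsed and the control comparison share no array. Called in both were 3357 probe sets, 70.6% of the calls in light and 50.8% of the calls in darkness, of which 3190 had the same direction and 167 the opposite one. Over all probe sets tested, the differences in light and in darkness had a Pearson correlation of 0.645 across probe sets, which are not independent replicates. The difference between them, tested in the same fit, was called for 1719 probe sets, 12.6%, of which 711 (5.21%) lay more towards night in light and 1008 (7.39%) more towards day. That count was 439 without normalization and 2700 with arrays centred on their medians, and it was 1142 without night control replicate 3 and 2664 without day control replicate 1.

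**Figure D1:**
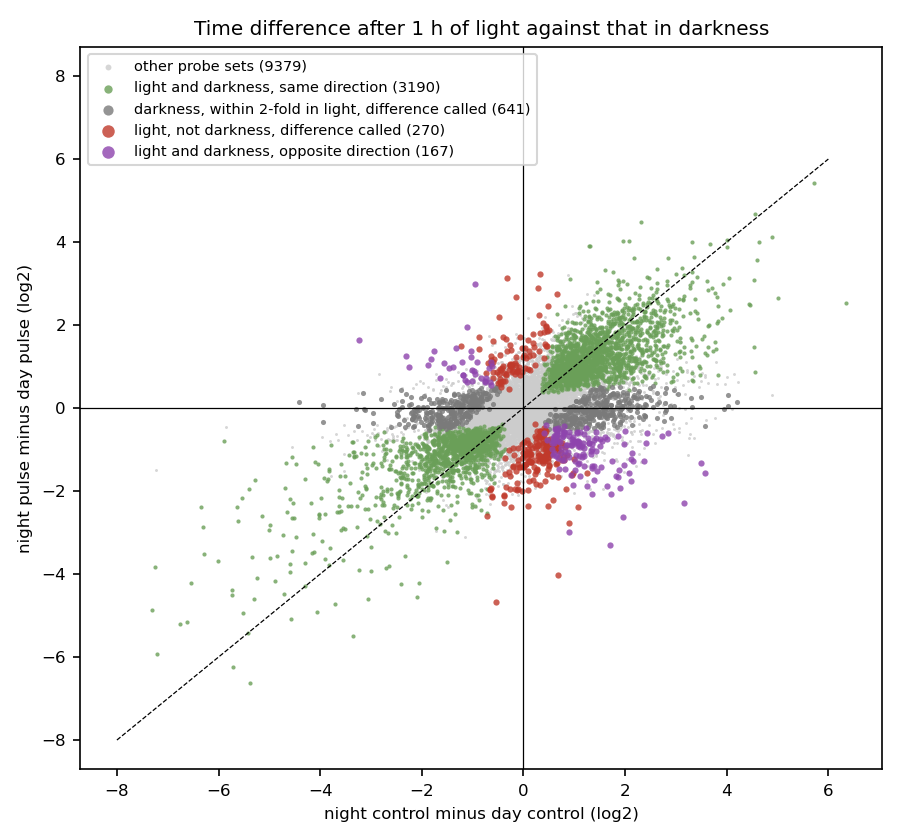
Each point is 1 of 13647 probe sets, with the night minus day difference (log2) in the dark controls on the horizontal axis and after 1 h of light on the vertical axis; colours mark how it was called, and the dashed line marks equal differences. Most of the large differences lie on the same side in light and darkness, and the largest in darkness lie nearer to 0 in light. Picking probe sets by large values in darkness by itself favours smaller values in light.

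Large differences in darkness were mostly smaller after the pulse. For the 1059 probe sets called in darkness with at least a 4-fold difference, the median size was 2.52 log2 in darkness and 1.26 log2 in the same direction in light, with quartiles of 0.59 and 2.06. In light 685 of them were called in the same direction, 17 in the opposite direction and 357 were not called. The size was lower in light than in darkness for 973. These probe sets were chosen by their values in darkness, which by itself favours a smaller size in light. Those higher at night in darkness, 633, went from a median of 2.45 to 1.20, and those higher in the day, 426, from -2.65 to -1.34.

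Genes of amino acid breakdown were among those with the largest differences towards the day pulse. MCCA (AT1G03090), a subunit of methylcrotonyl-CoA carboxylase in leucine breakdown, had signals of 95.3, 119 and 133 on the night pulse arrays and 2667, 2401 and 2771 on the day pulse arrays. Every day pulse array was far above every night pulse array, and the fitted difference was -4.48 ± 0.23, or 22.5-fold (limma, adjusted p = 5.1e-08). The same gene was at 268 ± 89.8 and 6798 ± 812 in the night and day controls, so the day group was the higher one with and without the pulse.

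AT4G33150, which the reference annotation names LKR/SDH, the bifunctional enzyme that starts lysine breakdown, read 38.3, 80.1 and 50.5 after the night pulse and 1047, 1422 and 1368 after the day pulse (-4.51 ± 0.25). IVD (AT3G45300), isovaleryl-CoA dehydrogenase of leucine breakdown, read 95.7, 93.3 and 136 against 1105, 1170 and 1275 (-3.45 ± 0.17, limma adjusted p = 3.91e-08). In both genes the groups were separated by a wide gap with no overlap. For IVD the difference was smaller in light than in darkness, where it was -4.56 ± 0.17, and the gap between the 2 was called at 1.12 ± 0.24 (limma, adjusted p = 0.00883), a call lost without normalization (adjusted p = 0.109). ETFQO (AT2G43400), which passes electrons from these dehydrogenases to the respiratory chain, was 11.5-fold higher after the day pulse (65.3 ± 8.90 against 751 ± 122). ALDH6B2 (AT2G14170), methylmalonate semialdehyde dehydrogenase of valine breakdown, was 7.28-fold higher, from 454 ± 34.5 after the night pulse to 3308 ± 148 after the day pulse.

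Of 30 genes listed for amino acid breakdown, 18 had a probe set with 1 gene and 16 passed the filter on low signals. In light 11 of these 16 were higher after the day pulse and 2 after the night pulse, with a median difference of -2.29 against -0.03 over all probe sets tested. In darkness 14 were higher in the day and none at night, with a median of -2.86. Without the filter the counts in light were 12 and 3 of 18. The 2 in the opposite direction, AT4G31810 (2.29 ± 0.55) and AT4G16800 (0.99 ± 0.23), were chosen for mention after their values were seen, as were those without a call, AT2G26800 (-0.74 ± 0.28), D2HGDH (-0.65 ± 0.30), which oxidizes D-2-hydroxyglutarate, and ETFBETA (-0.53 ± 0.23), a subunit of the flavoprotein that hands electrons to ETFQO. The list was drawn up after values were seen, and it is described here without a test of its own.

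**Figure D2:**
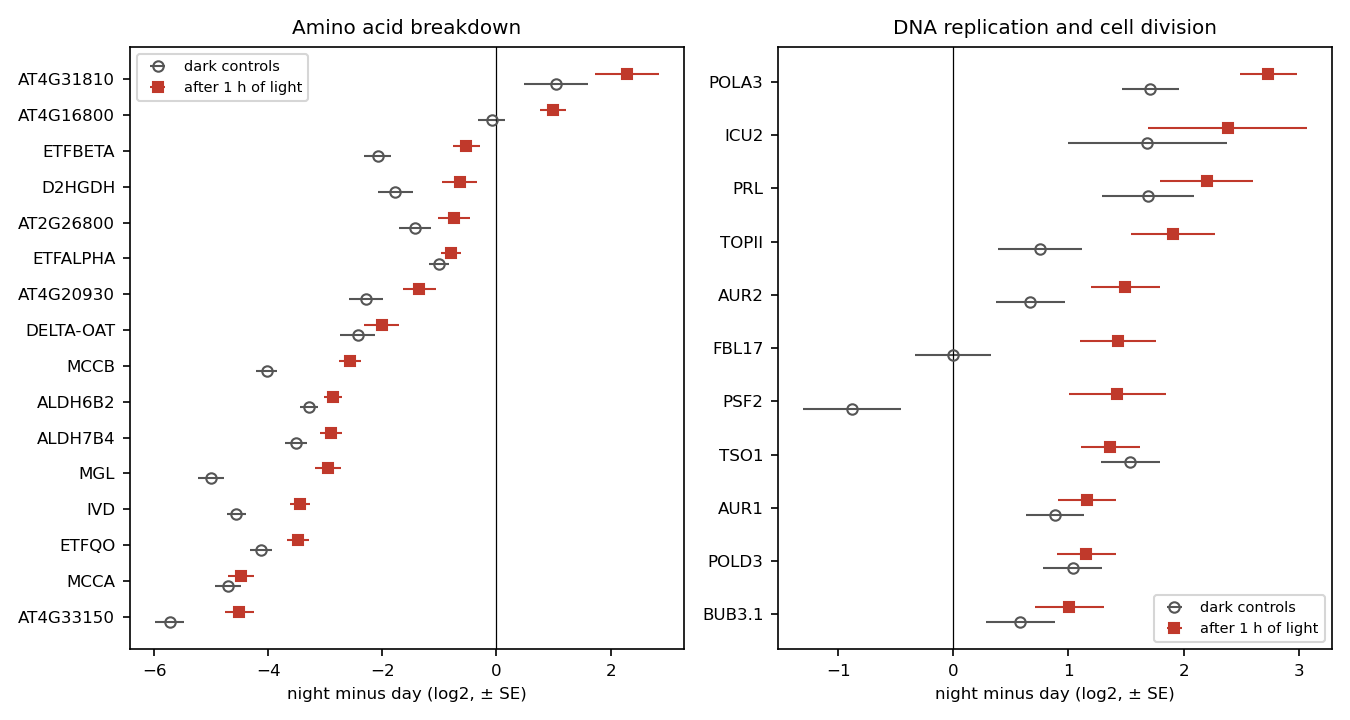
Night minus day differences (log2, ± SE, n = 3 arrays a group) for the tested members of the amino acid breakdown list (left) and the DNA replication and cell division list (right), in the dark controls (open circles) and after 1 h of light (filled squares). On the left 11 of 16 members were called higher after the day pulse, and on the right all 11 tested members were called higher after the night pulse. Both lists were drawn up after values were seen. On the right, a member that passed the filter on low signals through its high group alone had to differ.

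The dark- and sugar-starvation list, which shares IVD and ETFQO with the amino acid list, had 4 tested members of 13 listed. In light 3 were higher after the day pulse and 1 was not called, and in darkness all 4 were higher in the day. Its remaining called member, AT3G15450, was at 141 ± 51.8 and 437 ± 80.6 (-1.68 ± 0.25). Its other member, ATG8E (AT2G45170), had 37.3, 50.5 and 64.5 after the night pulse and 98.2, 55.5 and 43.7 after the day pulse, so the groups overlapped (-0.31 ± 0.27, limma adjusted p = 0.388). In darkness the same gene was at 449 to 515 at night and 1526 to 1894 in the day, and the gap between light and darkness was 1.49 ± 0.38 (limma, adjusted p = 0.0198), lost without night pulse replicate 3 or day control replicate 2.

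ATG8 proteins are attached to lipids of the growing autophagosome and recruit its cargo, and ATG3 is the enzyme that attaches them. All 10 genes of the autophagy list, 9 ATG8 genes and ATG3, were tested. After the pulse 5 were higher in the day group and none in the night group, with a median of -0.46, and in darkness all 10 were higher in the day, with a median of -1.59. ATG8B (AT4G04620) read 83.8, 89.9 and 127 after the night pulse and 639, 326 and 444 after the day pulse. The arrays did not overlap, and the difference of -2.17 ± 0.26 was smaller than that in darkness by 1.81 ± 0.36 (limma, adjusted p = 0.00581). APG8A (AT4G21980) and ATG8F (AT4G16520) differed by -0.91 ± 0.18 and -0.93 ± 0.19 in light, less than in darkness by 1.52 ± 0.26 and 1.13 ± 0.27. These light calls depended on the scaling, since without normalization the list kept 1 call, the median moved to 0.04, and APG8A, ATG8F and APG8H (-0.79 ± 0.18) lost theirs (adjusted p = 0.301, 0.309 and 0.506).

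The 12 genes with the largest fitted differences towards the day pulse include AT1G19530, AT5G39520 and AT1G72060, each with a group mean under 21.75, and with dim signals raised their differences were -4.61, -5.21 and -4.83. They carry no name in the annotation used here. AT1G19530 read 1.74, 24.3 and 7.69 after the night pulse and 442, 685 and 704 after the day pulse, at least 28.1-fold. AT5G39520 was at 32.6 ± 13.5 in the night group and 1241 ± 296 in the day group, 38.0-fold, and AT1G72060 was at least 34.2-fold higher in the day group. All 3 also had differences of -5.53 to -7.22 in darkness.

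CYP71B26 (AT3G26290), a cytochrome P450, differed by time more in light than in darkness. It read 45.0, 47.4 and 57.1 after the night pulse and 1405, 1067 and 1155 after the day pulse, a 24.3-fold gap with no overlap (-4.54 ± 0.21, limma adjusted p = 2.77e-08). In the controls it was at 22.9 ± 4.03 at night and 105 ± 21.7 in the day, a difference of -2.09 ± 0.21. The gap between light and darkness was -2.45 ± 0.29 (limma, adjusted p = 0.000185) and was called under each of 22 alternatives. The cytochrome P450 list was drawn by gene symbol, holds mostly CYP71B genes and does not stand for the whole family. Of its 10 tested members, out of 22 listed, 5 were higher after the day pulse and none after the night pulse, with a median of -0.70. That count was 3 without day pulse replicate 1 and 2 of 9 tested without normalization.

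The largest fitted difference towards the night pulse was that of AT2G23910, which carries no name in the annotation and was at least 8.62-fold higher (4.47 ± 0.52). All its day pulse arrays were under 21.75, and with dim signals raised its difference of 2.99 ± 0.18 was below those of GSTU20 and BCAT4. These 2 are listed as genes of aliphatic glucosinolate synthesis, the pathway that makes methionine-derived defence compounds of the cabbage family. BCAT4 (AT3G19710), the aminotransferase that takes the first step of methionine chain elongation, read 579, 791 and 710 after the night pulse and 59.0, 23.9 and 49.8 after the day pulse. The groups were 15.7-fold apart with no overlap (3.99 ± 0.30, limma adjusted p = 1.03e-06). GSTU20 (AT1G78370), a glutathione transferase that was entered in this list, read 773, 1044 and 1224 against 59.4, 43.7 and 65.7, which is 18.0-fold (4.12 ± 0.37).

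AT2G31790, entered in the list as UGT74C1, was 4.06-fold higher after the night pulse (368 ± 16.5 against 90.8 ± 29.0), and UGT74B1 (AT1G24100), which adds the glucose, was not called (0.48 ± 0.36, limma adjusted p = 0.323). In all 4 of 29 listed genes were tested and 3 were higher after the night pulse, with a median of 3.02. In darkness all 4 were higher at night, with a median of 2.56. The list was drawn up after values were seen.

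**Figure D3:**
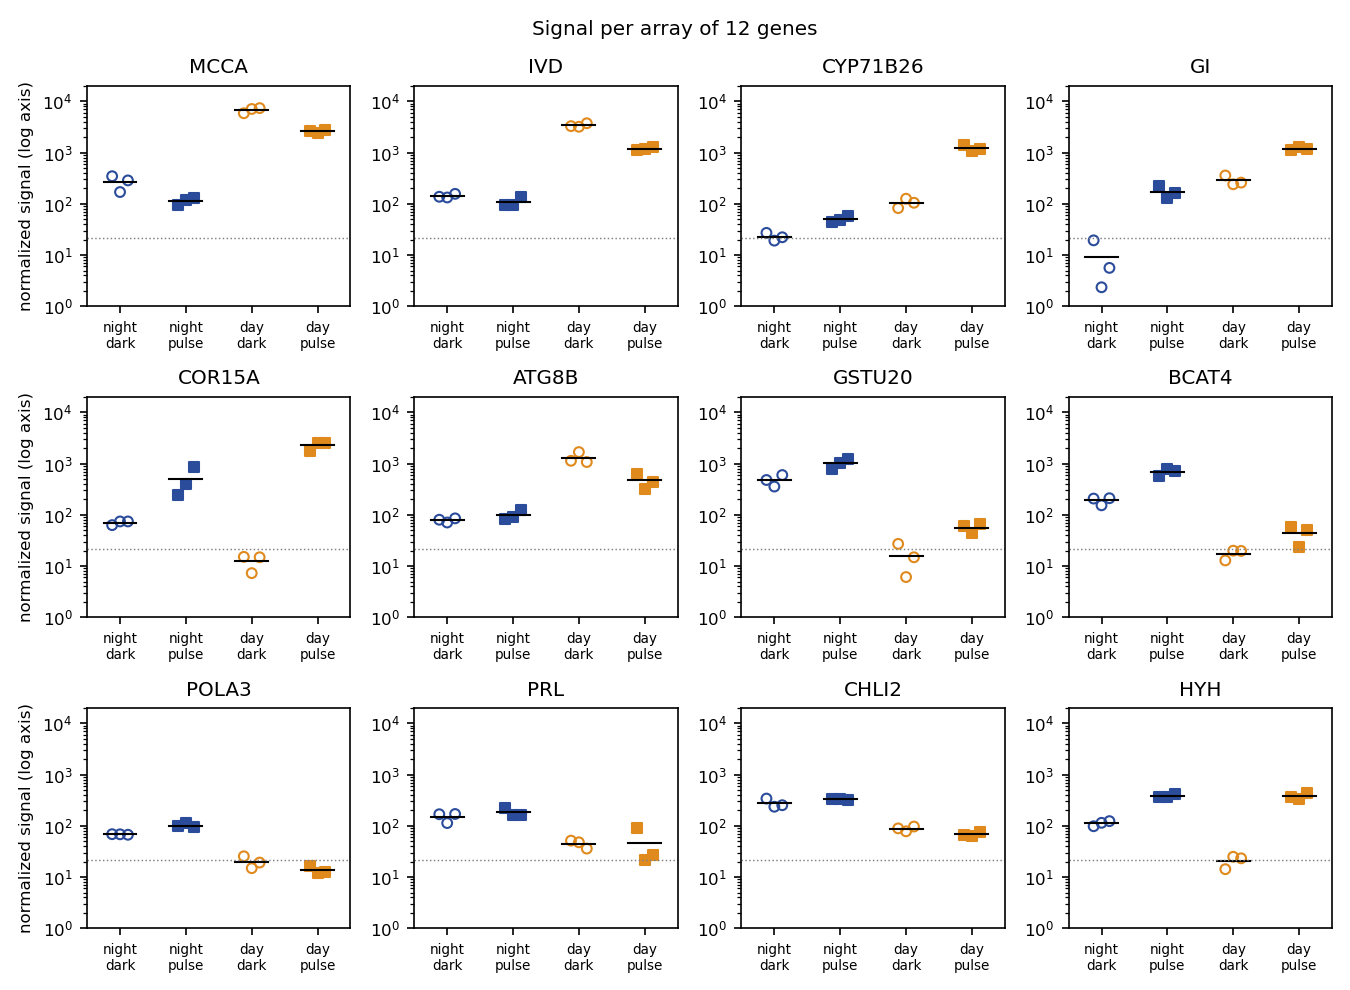
Normalized signal (log axis) on each of the 12 arrays for 12 genes, with dark controls as open circles, pulsed arrays as filled squares, night in blue, day in orange and group means as bars; the dotted line marks 21.75. MCCA, IVD, CYP71B26, GI, COR15A and ATG8B were higher after the day pulse, GSTU20, BCAT4, POLA3, PRL and CHLI2 after the night pulse, and the pulsed groups overlapped for HYH.

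Genes of DNA replication and cell division were higher after the night pulse. POLA3 (AT5G41880), a subunit of the DNA primase that starts new strands, read 98.0, 112 and 94.6 after the night pulse and 16.3, 12.1 and 12.5 after the day pulse. This is at least 4.67-fold, with no overlap (2.73 ± 0.25, limma adjusted p = 4.85e-06). PRL (AT4G02060), the MCM7 subunit of the helicase that opens replication origins, read 221, 165 and 165 against 90.4, 21.6 and 27.4 (2.20 ± 0.40), where day pulse replicate 1 lay above the other day pulse arrays but below every night pulse array. TOPII (AT3G23890), topoisomerase II, which untangles chromosomes, was at least 3.30-fold higher (1.91 ± 0.36), and TSO1 (AT3G22780), a regulator of the division of meristem cells, was at 121 ± 17.6 and 47.5 ± 16.9.

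Of the 14 genes on this list with a probe set, 11 passed the filter on low signals, and all 11 of those were higher after the night pulse, by 1.01 to 2.73 log2, with a median of 1.43. In darkness 5 of the 11 were higher at night and none in the day, with a median of 0.88. Among the 11 the gap between light and darkness was called for a single member. The higher count in light is therefore no evidence by itself that the other members differed more in light than in darkness. Many of these genes had low signals, and a member that passed the filter through its high group alone had to differ. Without any filter 12 of 14 were higher after the night pulse, and with dim signals raised to 21.75 the count was 10. With the filter at the 60th percentile 3 members were tested, and all 3 were higher after the night pulse. The list was drawn from gene symbols after values were seen.

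Histone genes did not move together. HTB2 (AT5G22880), an H2B histone, read 340, 569 and 339 after the night pulse and 65.3, 94.7 and 87.1 after the day pulse, 5.05-fold with no overlap (2.28 ± 0.22). HIS1-3 (AT2G18050), a linker histone known to respond to drought, was higher after the day pulse (32.8 ± 13.4 and 76.8 ± 13.9, -1.23 ± 0.29), a call lost without normalization (adjusted p = 0.247). Of 7 tested histone and chaperone genes 3 were higher in the night pulse group and 2 in the day pulse group, beside 18.8% and 16.1% of all probe sets tested. Of 7 tubulin genes, which build the microtubules of the division spindle and the cell cortex, 5 were higher after the night pulse, none after the day pulse, and the median was 1.20. TUB7 (AT2G29550) read 490, 455 and 460 against 209, 106 and 131 (1.70 ± 0.23), again without overlap, and in darkness 4 tubulin genes were higher at night and 1 in the day.

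Expansins loosen the wall and xyloglucan endotransglucosylases cut and rejoin its chains, and of 13 tested out of 27, 3 were higher in the night pulse group and 1 in the day pulse group, beside 18.8% and 16.1% of all probe sets tested. EXLB1 (AT4G17030) and EXPB3 (AT4G28250) were 5.77-fold and 4.46-fold higher after the night pulse (2.46 ± 0.29 and 2.07 ± 0.29), while EXLA1 (AT3G45970) was at least 2.30-fold higher after the day pulse, a call lost without normalization (adjusted p = 0.0618). In darkness 8 of the 13 were higher at night and 2 in the day, beside 25.7% and 22.7% of all probe sets tested. Of 14 tested serine carboxypeptidase-like genes, 7 were higher in the night pulse group and 1 in the day pulse group, with scpl35 (AT5G08260) at 734, 782 and 459 against 44.6, 40.2 and 39.6. That is 15.9-fold in light (3.89 ± 0.25) and 16.3-fold in darkness, and the gap between light and darkness was -0.11 ± 0.35. Among the tested members that gap was called for scpl46 alone, which was higher at night in both and differed less in light than in darkness.

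Chloroplast genes of the nucleus split. CHLI2 (AT5G45930), a subunit of the magnesium chelatase of chlorophyll synthesis, read 337, 332 and 320 after the night pulse and 66.2, 63.8 and 74.5 after the day pulse, 4.84-fold with no overlap (2.24 ± 0.18, limma adjusted p = 1.75e-06). The other 3 tested genes of chlorophyll synthesis were not called: PORB (0.39 ± 0.17), a light-dependent protochlorophyllide reductase, CHLM (0.20 ± 0.13), a methyltransferase, and HEMA2 (-0.33 ± 0.33), which starts tetrapyrrole synthesis, although without normalization PORB and CHLM were called.

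The related antenna proteins LHCB4.2 and LHCB4.3 of photosystem II differed in opposite directions. LHCB4.3 (AT2G40100) read 1079, 504 and 653 after the night pulse and 195, 81.8 and 99.2 after the day pulse (2.58 ± 0.31), and LHCB4.2 (AT3G08940) read 2124, 2452 and 1439 against 6685, 6640 and 6986 (-1.79 ± 0.33). Neither pair of groups overlapped. Probes for such similar genes can share signal, which was not tested. LHCB4.1 (AT5G01530) was at 5471 ± 609 and 7307 ± 162 (-0.42 ± 0.13), a call lost under 5 of 23 alternatives. NdhN (AT5G58260), a subunit of the chloroplast NDH complex for electron flow around photosystem I, was 4.29-fold higher after the night pulse, at 922 ± 180 and 215 ± 35.9. Of the 3 nuclear NDH genes tested, NdhL was also higher after the night pulse (0.90 ± 0.16). NdhS was higher after the day pulse, at 1057 ± 109 and 1884 ± 181 (-0.83 ± 0.17, limma adjusted p = 0.00182), a call lost without normalization (adjusted p = 0.648).

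Pentatricopeptide repeat proteins edit, cut and stabilize the RNA of chloroplasts and mitochondria. A list drawn for them by gene symbol had 15 members, of which 9 were tested. After the night pulse 6 of these 9 were higher and after the day pulse none, with a median of 1.30. The counts include CRR41 and CRR42, which were entered by symbol and are not read here as pentatricopeptide repeat proteins. PPR596 (AT1G80270) was 4.29-fold and CRR42 (AT5G20935), which is needed for the chloroplast NDH complex, 3.09-fold higher. In darkness 7 of these 9 were higher at night. Of the 69 plastid-encoded genes, in contrast, none was higher in the night pulse group and 1 in the day pulse group, psbF (-0.93 ± 0.32), a call lost under 10 of 23 alternatives. In darkness 29 of the 69 were higher at night, beside 25.7% of all probe sets tested. That count was 12 without day control replicate 2, 8 without day control replicate 3, 42 without day control replicate 1 and 5 with arrays centred on their medians. Day control replicates 2 and 3 were low in these genes, with mean log2 signals of 8.99 and 9.08 against 10.26 for day control replicate 1 and 10.15 to 10.80 in the night controls, and day control replicate 2 had a GAPDH ratio of 8.75. Night pulse replicate 3 was low in these genes, with a mean log2 signal of 8.51 against 10.50 and 10.28 on the other night pulse arrays and 9.56 to 10.66 on the day pulse arrays, and without it the call of psbF was lost and the median in light moved from -0.34 to 0.09. These fits without single arrays were chosen for the list after seeing the data.

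**Figure D4:**
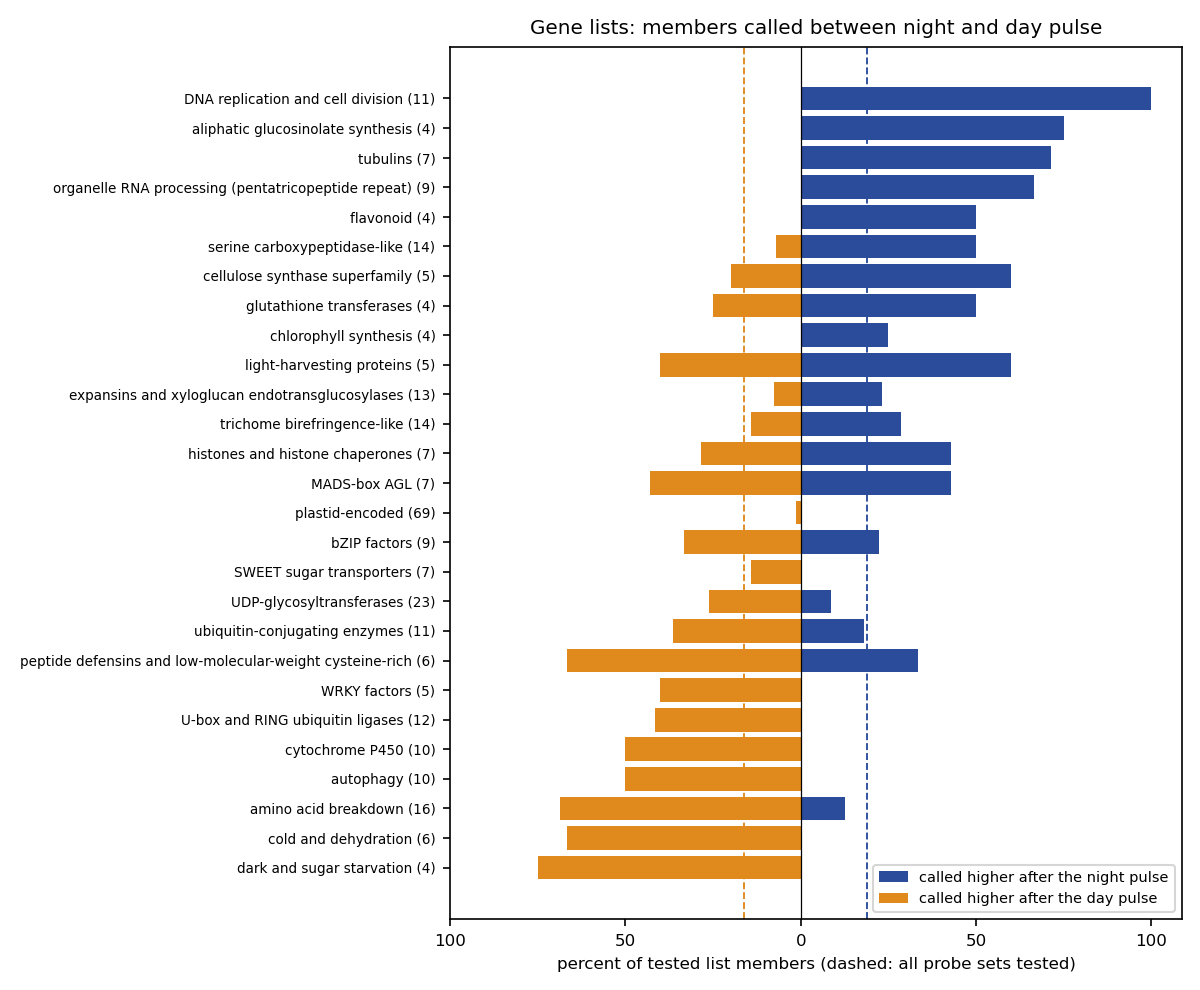
Percent of the tested members of each gene list called higher after the night pulse (blue, to the right) or after the day pulse (orange, to the left), for lists with at least 4 tested members, whose number stands in brackets; dashed lines mark the shares over all probe sets tested, 18.8% and 16.1%. The list of DNA replication and cell division has all of its tested members on the night side. There, a member that passed the filter through its high group alone had to differ. Amino acid breakdown lies mostly on the day side. The starvation, cold, autophagy, cytochrome P450, ubiquitin ligase and WRKY lists have calls on the day side alone. The SWEET and plastid-encoded lists have 1 call each, of 7 and 69 tested members, on the day side. That is below the day share over all probe sets and is not read as a result for these 2 lists. The starvation list shares members with the amino acid breakdown and autophagy lists, and several lists were drawn up after values were seen. Lists found by gene symbol need not hold the whole family, and the cytochrome P450 list holds mostly CYP71B genes.

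Few clock genes could be read, since of 20 clock and light genes to be named whatever their result 7 had a tested probe set with 1 gene. GI (AT1G22770), an evening gene that acts in the clock and in flowering, read 219, 129 and 166 after the night pulse and 1147, 1300 and 1162 after the day pulse. The day group was 7.03-fold higher with no overlap (-2.83 ± 0.43, limma adjusted p = 0.000231). In darkness GI was at 9.12 ± 9.04 at night and 286 ± 62.9 in the day, at least 13.2-fold, and the gap between light and darkness was 2.16 ± 0.60 (limma, adjusted p = 0.0322), a call lost under 10 of 22 alternatives, among them dim signals raised to 21.75 (adjusted p = 0.110). COR27 (AT5G42900), a repressor of the evening genes, was at 25.5 ± 6.23 and 13.1 ± 5.88 (0.93 ± 0.31), at least 1.17-fold, and lost its call under 6 of 23 alternatives. AT5G52660, entered in the list as the clock factor RVE6, was higher after the day pulse (69.7 ± 11.8 and 145 ± 57.9, -0.96 ± 0.32), a call lost under 9 of 23. For AT4G33980, entered as COR28, both pulsed means were under 21.75 and no difference was measured.

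The 3 light signalling genes tested, in contrast, were not called after the pulse. In darkness all 3 were higher at night, or 2 with dim signals raised to 21.75, where AT3G52740 lost its dark call. HYH (AT3G17609), a bZIP factor that acts with HY5 to switch on light-induced genes, read 363, 365 and 422 after the night pulse and 362, 341 and 433 after the day pulse. The groups overlapped, and the difference was 0.02 ± 0.21 with a 95% interval from -0.43 to 0.47. In darkness it was at 112 ± 12.9 at night and 20.8 ± 5.73 in the day, a difference of 2.35 ± 0.21, so light and darkness differed by -2.33 ± 0.30 (limma, adjusted p = 0.000284), a call kept under each of 22 alternatives.

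AT3G52740 and AT3G44450 were entered in the list as BIC1 and BIC2, inhibitors of cryptochrome that light induces. AT3G52740 read 218, 127 and 245 after the night pulse and 316, 197 and 252 after the day pulse, and AT3G44450 was at 548 ± 99.3 and 946 ± 56.9. Neither was called (-0.40 ± 0.34 and -0.80 ± 0.50), although the arrays of AT3G44450 did not overlap, as for 46.0% of probe sets. It was called under 5 alternatives, with an adjusted p of 0.0031 to 0.0156. Their dark differences were 2.18 ± 0.34 and 2.29 ± 0.50 (0.12 ± 0.25 and 0.75 ± 0.18 with dim signals raised), and the gaps between light and darkness were -2.59 ± 0.47 and -3.09 ± 0.71. Since their day control means were under 21.75, the gaps were also fitted with raised signals, which gave -0.52 ± 0.35 and -1.55 ± 0.25, the first without a call (adjusted p = 0.363). AT1G69570, entered as CDF5, a repressor of flowering, had 0.37 ± 0.59 in light and -3.26 ± 0.59 in darkness, a gap of 3.63 ± 0.84. Its night control mean was under 21.75, and with dim signals raised the dark difference was -2.09 ± 0.27 and the gap 2.17 ± 0.38.

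Of the cold-regulated genes, COR15A and COR15B differed in light in the direction opposite to darkness. COR15A (AT2G42540), a chloroplast protein that protects membranes in freezing, read 249, 402 and 842 after the night pulse and 1769, 2542 and 2483 after the day pulse, with no overlap (-2.34 ± 0.37, limma adjusted p = 0.0003). In darkness it was higher at night, at 70.6 ± 6.55 against 12.4 ± 4.46, a difference of 2.38 ± 0.37. The gap of -4.72 ± 0.52 (limma, adjusted p = 9.28e-05) was -3.95 ± 0.46 with dim signals raised and was called under each of 22 alternatives.

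COR15B (AT2G42530), its neighbour in sequence, behaved likewise, at 373 ± 200 and 1269 ± 208 after the pulses (-1.87 ± 0.48), with a gap between light and darkness of -3.51 ± 0.68, although its light difference lost the call without normalization (adjusted p = 0.118). Its day control arrays read 26.1, 6.44 and 15.2. With dim signals raised its dark difference was 0.98 ± 0.39 (limma, adjusted p = 0.0465) and its gap -2.86 ± 0.54. Probes for COR15A and COR15B can share signal, which was not tested. COR47 (AT1G20440), a dehydrin, read 685, 1262 and 1313 against 3102, 4999 and 5146 (-2.04 ± 0.28) and was also higher in the day in darkness (-2.13 ± 0.28). TIL (AT5G58070), a lipocalin of freezing tolerance, was at 710 ± 47.2 and 1711 ± 533, a call lost without normalization (adjusted p = 0.168). Of 6 tested cold and dehydration genes 4 were higher after the day pulse and none after the night pulse, with a median of -1.55, or 2 without normalization, and in darkness 2 were higher at each time.

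Such reversals were uncommon. They were called in both comparisons for 167 probe sets, 1.22% of those tested, of which 133 were higher in the day group in light and at night in darkness and 34 the other way. The gap between light and darkness was called for all 167. Calls of opposite direction in the same fit all but fix that outcome, so it is no further support. Without normalization 37 such reversals were called. AT1G13650 and AT5G64850, of unknown name, belonged to the larger set. AT5G64850 was at 124 ± 15.6 and 403 ± 97.5 after the pulses and at 74.9 ± 17.3 and 21.9 ± 16.4 in the controls (gap -3.53 ± 0.52), and its light call was lost without normalization (adjusted p = 0.0915). AT1G13650 was at 53.1 ± 20.8 and 254 ± 42.9 after the pulses, with a gap of -5.44 ± 0.48 that was -2.47 ± 0.39 with dim signals raised, which left its dark difference without a call (adjusted p = 0.595).

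AT4G05070 went the other way. It read 203, 283 and 170 after the night pulse and 135, 101 and 89.6 after the day pulse (0.99 ± 0.21), against 1686 to 1739 in the day controls and 314 to 406 in the night controls. The groups did not overlap in either comparison, and the gap was 3.24 ± 0.29 (limma, adjusted p = 2.74e-05). For AT3G62950 both pulsed means were under 21.75, so its light difference was not measured although the fit called it, and for AT1G20030, 10.5-fold higher after the day pulse (26.9 ± 2.45 and 284 ± 30.2), both control means were, so its dark difference was not measured. With signals raised its gap between light and darkness was -3.30 ± 0.25. That value repeats its raised light difference, since raising set the dark difference to 0, and is no further support for a gap.

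A further 270 probe sets, 1.98%, were called in light and not in darkness with the gap between them called, 94 towards night and 176 towards day. Their number was 31 without normalization and 437 with arrays centred on their medians. AT1G51090, of unknown name, read 80.7, 40.7 and 82.4 after the night pulse and 1248, 1137 and 884 after the day pulse, with no overlap (-4.02 ± 0.52). Its 6 control arrays were at 1.55 to 16.8, under the lowest mean signal kept, so the dark difference was not measured. With signals raised the gap was -4.02 ± 0.35. Raising set the dark difference to 0, so this value repeats the light difference and is no further support for a gap. UBC28 (AT1G64230), a ubiquitin-conjugating enzyme, was at 1238 ± 21.9 and 3065 ± 373 after the pulses and at 2659 ± 138 and 2500 ± 896 in the controls (gap -1.44 ± 0.28). UGT88A1 (AT3G16520), a glycosyltransferase, was at 633 ± 116 and 1459 ± 59.4 (gap -1.64 ± 0.29).

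UBC28 and UGT88A1 lost their light calls without normalization (adjusted p = 0.0864 and 0.220) and their gaps both without normalization and with arrays centred on their medians. DPE1 (AT5G64860), an enzyme of starch breakdown, was at 191 ± 25.4 and 102 ± 18.5 (0.90 ± 0.22), and its gap of 1.11 ± 0.31 was lost under 9 of 22 alternatives. AT1G65560 was at least 4.27-fold higher after the night pulse, and its gap of 2.90 ± 0.77 was lost under 7 of 21. A light difference without a call in darkness is no evidence of a difference between them by itself, since for 1129 other probe sets called in light and not in darkness the gap was not called.

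For 641 probe sets, 4.70%, the reverse held: they differed in darkness, their light difference had a 95% interval within 2-fold either way, and the gap was called. Of these 344 were higher at night in darkness and 297 in the day. Their number was 99 without normalization and 1145 with arrays centred on their medians. AT2G38820 read 29.5, 51.2 and 42.4 after the night pulse and 36.7, 37.5 and 40.3 after the day pulse, against 55.4 to 63.7 and 791 to 1057 in the controls. Its pulsed arrays overlapped, and the gap was 4.01 ± 0.29 (limma, adjusted p = 1.08e-05). AT1G44000 read 915, 1059 and 867 against 757, 1056 and 810 after the pulses, with night and day controls at 773 ± 113 and 111 ± 14.4 (gap -2.65 ± 0.26). SKP2A (AT1G21410), an F-box protein that targets cell cycle factors for breakdown, was at 154 ± 29.2 and 116 ± 39.8 after the pulses and 66.4 ± 8.03 and 364 ± 53.1 in the controls (gap 2.85 ± 0.34).

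Of 7 tested SWEET sugar transporters, out of 15, SWEET13 (AT5G50800) was higher after the day pulse (33.1 ± 12.0 and 102 ± 34.5), a call lost under 4 of 23 alternatives, and none was higher after the night pulse, beside 34.9% of all probe sets called in either direction. SWEET17 (AT4G15920), a fructose carrier of the vacuole, was not called in light (-0.62 ± 0.24, limma adjusted p = 0.0633), though it was called day-high under 5 alternatives, among them the fit without day pulse replicate 1 (-0.88, adjusted p = 0.00561), and was higher at night in darkness (1.65 ± 0.24), a gap of -2.27 ± 0.34. Of 5 tested WRKY factors 2 were higher after the day pulse and none after the night pulse, beside 16.1% and 18.8% of all probe sets tested. These 2 were WRKY53 (AT4G23810), which acts in leaf senescence, and WRKY6 (AT1G62300). Neither kept its call without normalization (limma, adjusted p = 0.0587 and 0.177). Of 4 tested flavonoid genes 2 were higher after the night pulse, AT1G06000, entered in the list as UGT89C1 (902 ± 71.9 and 331 ± 71.4), and UGT78D1 (AT1G30530), which adds rhamnose to flavonols (438 ± 75.1 and 233 ± 62.0), and UGT78D2 and AT1G23390 were not called.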

How the data were processed

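Affymetrix ATH1 arrays measured RNA of 12 samples in 4 groups of 3. The authors' deposited values are linear signal intensities, made with MAS5 per the submitters' processing notes, while no source read here gives its version, scaling or detection calls. Groups follow the sample titles. Nothing in the labels says whether replicates were separate plantings, so p-values measure the spread between arrays, and 3 arrays a group limit the precision.

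Of 22810 probe sets, 64 array controls were left out. Signals were taken as log2(signal + 2), quantile normalized over the 12 arrays, and probe sets under the 40th percentile of mean signal were removed, which left 13647. One model over the 4 groups was fitted with limma 3.58.1 in R 4.3.3 (lmFit, eBayes, trend on, with 8 degrees of freedom left among arrays), with two-sided tests and Benjamini-Hochberg adjustment over all probe sets. The procedure was tested on simulated data, where it recovered 43 of 100 changes of 1 log2 and 78 of 100 of 2 log2. The simulation held far fewer changed probe sets than were called in the data, so recovery may differ there. A probe set without a call may still differ. Tables and figures used Python 3.11.15 with pandas 2.3.3, numpy 2.4.6 and matplotlib 3.10.9.

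Of the probe sets 13513 had 1 gene in the platform annotation, 503 several, and 8730 are not listed there. Of those with 1 gene, 13436 matched the RefSeq gene table of TAIR10.1 and 7331 were kept, and a gene with several was read from the brightest. Named genes were the 12 largest called differences in each direction without overlap between arrays, 20 clock and light genes whatever their result (7 had a kept probe set with 1 gene), the 4 or fewer members of each list with the lowest p, and up to 5 in each direction of each class of time difference in light and darkness. This gave 157 genes, of which the most informative are described. The comparison, members and lists were chosen with earlier results of these data known. The amino acid and glucosinolate lists and the families found by symbol were drawn up after annotation and values were seen.

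The alternatives were no normalization, centring on medians, a pseudocount of 16, no filter, a filter at the 60th percentile, eBayes without a trend, a fit of only the groups compared, dim signals raised to 21.75, array weights, each array left out, the replicate number as a block, and arrays with a GAPDH ratio above 6 left out. A planned search of promoters for motifs was not run, and no sequence is printed. Same-numbered pulsed arrays correlated at 0.446, 0.351 and -0.024 in their deviations from the group means, so replicate numbers were not taken as pairs.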

Additional observations from a re-analysis of the deposited data

Results flagged for a closer look

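For 34 genes whose values are given in the report or among the other observations, the night minus day difference in light differed from that in darkness by limma's test of that difference (adjusted p under 0.05). The values below are the difference in light minus that in darkness (log2). Their sign does not tell which pulsed group was higher. GI and IVD have positive values and were higher after the day pulse, and NdhN has a negative value and was higher after the night pulse. Values that lay more towards day in light than in darkness were -5.44 for AT1G13650, -5.01 for AT1G20030, -4.72 for COR15A, -4.69 for AT1G51090, -3.53 for AT5G64850, -3.51 for COR15B, -3.09 for AT3G44450, -3.08 for AT1G06000, -2.65 for AT1G44000, -2.59 for AT3G52740, -2.45 for CYP71B26, -2.33 for HYH, -2.27 for SWEET17, -1.74 for psbF, -1.64 for UGT88A1, -1.46 for RING1, -1.44 for UBC28, -0.91 for NdhN and -0.72 for SBPASE. Those that lay more towards night in light than in darkness were 4.88 for AT3G62950, 4.01 for AT2G38820, 3.63 for AT1G69570, 3.24 for AT4G05070, 2.90 for AT1G65560, 2.85 for SKP2A, 2.16 for GI, 1.81 for ATG8B, 1.52 for APG8A, 1.49 for ATG8E, 1.30 for THI2.2, 1.22 for AT4G33150, 1.13 for ATG8F, 1.12 for IVD and 1.11 for DPE1. Of the 34 calls, 19 were kept under each alternative run for them, and 12 were lost without normalization. AT4G33150 and NdhN lost theirs under 14 of 22 alternatives, THI2.2 under 15, SBPASE under 17 and psbF under 9. For AT1G06000, AT1G13650, AT1G20030, AT1G51090, AT1G65560, AT1G69570, AT3G44450, AT3G52740, AT3G62950, COR15A, COR15B, GI and HYH a group mean was under 21.75, and each value was smaller with dim signals raised. The calls of GI, AT1G06000 and AT3G52740 were lost there. Raising set the dark difference of AT1G20030 and AT1G51090 to 0, and the light difference of AT3G62950. For these genes 1 of the 2 differences was not measured, so their gaps are not measured either. Groups of 3 arrays are too small for a check of single outlying arrays by their gaps.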

How the results depend on the processing

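The count of calls between night and day pulse stayed within 1.5 times of 4756 under each alternative, from 3701 without normalization to 6758 with array weights (a fit that stopped before full convergence), and from 3803 to 5226 when 1 array was left out. The day-high calls numbered 375 without normalization and 3339 with array weights. The count of differences between light and darkness, 1719, was 439 without normalization, 2700 with arrays centred on their medians, 5324 with array weights, and 1142 to 2664 when 1 array was left out. Leaving out 1 array gave 2036 to 2711 night-high calls, 1678 to 2523 day-high calls and 5541 to 7427 calls in darkness. Without normalization the probe sets with opposite directions numbered 37, those called in light and not in darkness 31 and those called in darkness and within 2-fold in light 99, and with arrays centred on their medians the last 2 numbered 437 and 1145. Without normalization 2 cold genes and 1 autophagy gene were called day-high. At the 60th percentile filter 3 DNA replication genes were tested and all 3 were called night-high. The replicate number as a block gave 5110 calls in light, 6923 in darkness and 2013 for the difference, and moved no count by over 1.5 times. Night pulse replicate 2 correlated best with day pulse replicate 3 (0.363), not with its own number. Without day pulse replicate 1, a setting chosen after seeing the data for the gene lists, 12 amino acid breakdown, 4 cold and 5 autophagy genes were called day-high and 11 DNA replication genes night-high. Of 125 named genes called in light, 86 kept call and direction under each of 23 alternatives, 39 lost the call under at least 1, and 0 reversed. The cause of these changes was not tested, other than the smaller number of genes tested under the stricter filter. The planned search for promoter motifs was not run. Signals near 21.75 limit what can be said of dim genes.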

Other observations

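Of 12 tested U-box and RING ubiquitin ligases, which mark proteins for breakdown, 5 were higher after the day pulse and none after the night pulse, with a median of -0.98. Those with the smallest p were PUB43 (-1.35), LUL2 (-1.15), RING1 (-1.31) and LUL1 (-1.13), and all 4 lost the call without normalization. Of 23 tested UDP-glycosyltransferases 6 were higher after the day pulse and 2 after the night pulse, beside 16.1% and 18.8% of all probe sets tested. Of 6 tested defensin and cysteine-rich peptide genes, LCR68 and LCR69 were higher after the night pulse (1.43 and 1.46) and 4 after the day pulse, among them PDF1.4, at least 3.07-fold, and THI2.2 (-1.29), a call lost without normalization. Trichome birefringence-like proteins add acetyl groups to wall polymers. Of their 14 tested genes 4 were higher in the night pulse group and 2 in the day pulse group, beside 18.8% and 16.1% of all probe sets tested. Among them TBL45 was 5.00-fold higher after the night pulse. PWD, a kinase of starch breakdown, was higher after the night pulse (1.33 ± 0.21).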
